A study of Mus musculus with 16 samples.

Results

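The change of the testis transcriptome between P15 and P21 (postnatal days) in Emi2 knockout mice was described from 4 of the 16 arrays of the series. They were chosen by their titles: 2 arrays of Emi2 knockout testis at P15 and 2 at P21, all from whole testes of C57BL/6 mice. The only comparison groups used beside them were the 2 wild-type arrays at P15 and the 2 at P21, with the P30 and P60 arrays of both genotypes, 2 per group, for levels at later ages. The labels do not say how the knockout allele was made, which cells lack the gene, or whether arrays came from separate animals or pools, so the p-values below reflect array-to-array spread that may be no more than technical. The titles and age labels give P15 for the youngest mice and the growth protocol gives p12, and P15 is used here.

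Emi2, encoded by Fbxo43, binds and inhibits the anaphase-promoting complex, which tags cyclins and securin with ubiquitin and so sends them to destruction, letting a cell leave division. It is best known for holding the mouse egg in its second meiotic division until fertilization. In the juvenile mouse testis the first wave of germ cells enters meiosis together: at P15 the most advanced cells are spermatocytes in meiotic prophase, and round spermatids, the products of the meiotic divisions, begin to appear around P21. Whole testis also holds spermatogonia, Sertoli cells, which nurse the germ cells, and the hormone-making Leydig cells of the interstitium. In bulk tissue fewer cells of a type and less RNA per cell cannot be told apart.

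Transcript levels came from Illumina bead arrays, where short oligonucleotide probes are scored by brightness and by a detection p-value. Gene names from the platform annotation and the measured levels were at odds, so the labelled tissue could not be checked against its markers and each probe is given by its identifier, as a row label only. On both P21 knockout arrays, 39 of 78 probes named for ribosomal proteins, which all cells make, were detected (50%, exact Clopper-Pearson 95% interval 38.5% to 61.5%). For probes named for olfactory receptors it was 615 of 1154 (53.3%), and for all regular probes 51.4%. The probes named for testis cell types and blood numbered 87, of which 48 were detected on both P21 knockout arrays, and of the 59 tested 8 rose and 13 fell (13.6% and 22.0%, against 13.4% and 19.3% of all tested probes). The probe named Fbxo43, ILMN_2734262, was not at background in knockout. It read 10.96 and 11.23 on the P15 knockout arrays, 9.33 and 9.79 at P21 in knockout, 11.24 and 10.96 in P15 wild type and 9.31 and 9.84 in P21 wild type (normalized log2 signal). Knockout and wild type overlapped at both ages. Later they did not, at 8.95 and 9.27 in knockout against 10.33 and 10.45 in wild type at P30, and 9.53 and 9.61 against 10.57 and 10.49 at P60. With names that do not go with levels this checks no genotype label.

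Between P15 and P21 the knockout testis changed widely. Of 17355 tested probes, 2334 rose and 3353 fell (limma, Benjamini-Hochberg adjusted p under 0.05), which is 13.4% and 19.3% of those tested and 32.8% together, and 7238 had an unadjusted p under 0.05. The median change over all tested probes was -0.05 on the log2 scale. The 2 P21 arrays lay above both P15 arrays for 4699 probes (27.1%) and below both for 6806 (39.2%). More probes fell than rose, but the rises reached further. The median change of the probes that rose was 0.92 and the middle part of them, from the lower to the upper quartile, spanned 0.61 to 1.53. The median change of those that fell was -0.71, with quartiles of 0.51 and 0.96 in size.

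At a log2 change of 3 or more, which is 8-fold, there were 166 rises and 0 falls. At 4 or more there were 66 rises and at 5 or more 21. The largest rise was 6.60 and the largest fall that passed was -2.89. This difference in reach was also seen with background correction, where 383 rises and 10 falls had a log2 size of at least 3. The deposited values hold the background, which shrinks the changes of dim probes. With background correction by the normexp model, 1747 rises and 1838 falls had a size of at least 1, against 1065 and 731 in the deposited values, so which direction held more such changes depended on the background. It also depended on single arrays for its size, with 780 rises and 344 falls without P21 knockout replicate 1 and 1382 and 1336 without replicate 2.

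**Figure D1:**
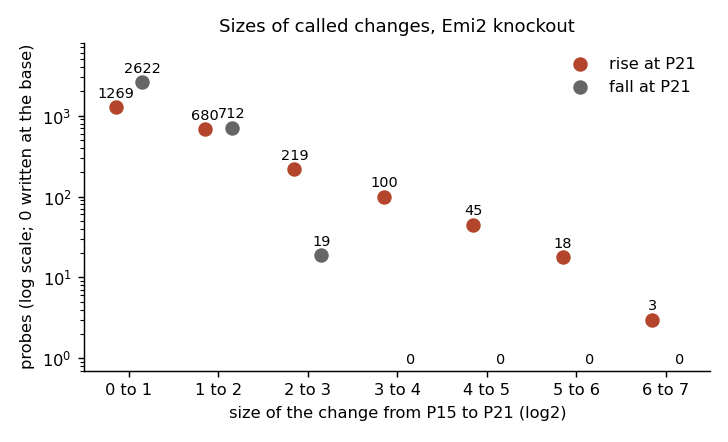
Number of probes (log scale, 0 written at the base) whose change from P15 to P21 in Emi2 knockout passed the threshold, by size of the change in log2 units, with rises and falls apart. Falls outnumber rises below 1 (2622 against 1269), 19 falls lie between 2 and 3, and 166 rises and 0 falls lie at 3 or more.

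The probes with the largest rises went from near the bottom of the scale to near its top. ILMN_1223979 read 7.28 and 7.66 on the P15 knockout arrays and 14.39 and 13.75 on the P21 arrays, a change of 6.60 ± 0.25 (SE; limma adjusted p = 4.6e-08). It was detected on 1 of the 2 P15 arrays, and its raw signals were 179.7 and 204 at P15 against 23631 and 13733 at P21. ILMN_2999755 read 7.21 and 7.25 at P15, where it was detected on neither array, and 13.84 and 13.05 at P21. Set against the detection floor, it was at least 69.3-fold higher at P21 (limma adjusted p = 6.14e-08). With background correction the changes of ILMN_1223979 and ILMN_2999755 were 8.47 and 8.65, so sizes and order that start near background depend on its treatment.

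ILMN_2695228 went from 7.38 and 7.34 to 13.80 and 13.01, and ILMN_2960700 from 7.74 and 7.75 to 14.17 and 13.31. Undetected on both P15 arrays were also ILMN_2659578 (7.06 and 7.13, then 13.33 and 12.60, at least 49.7-fold), ILMN_1247397 (7.08 and 7.24, then 13.38 and 12.68, at least 51.9-fold) and ILMN_2744399 (7.26 and 7.30, then 13.37 and 12.80, at least 54.1-fold). In these 8 probes the ages lay far apart, and replicate 1 was the higher of the P21 arrays in each. ILMN_1228610 was the brightest of the 8 at P21, at 15.09 and 14.79, and the only one whose P15 arrays differed by more than a log2 unit, at 8.34 and 9.88. All 8 had adjusted p-values of 2.43e-06 or lower (limma).

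The same 8 probes were high at P21 in wild type too, and for none of them did the knockout and wild-type steps differ by the test of the difference (limma adjusted p from 0.614 to 0.994). They were chosen for their knockout rise, so probes that knockout did not follow could not be among them. ILMN_2999755 read 7.06 and 7.46 in wild type at P15 and 14.34 and 13.87 at P21. Their levels stayed high later in knockout: ILMN_1247397 read 14.35 and 13.89 at P30 and 14.07 and 14.21 at P60, and ILMN_1228610 15.19 and 15.20, then 15.11 and 15.12.

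**Figure D2:**
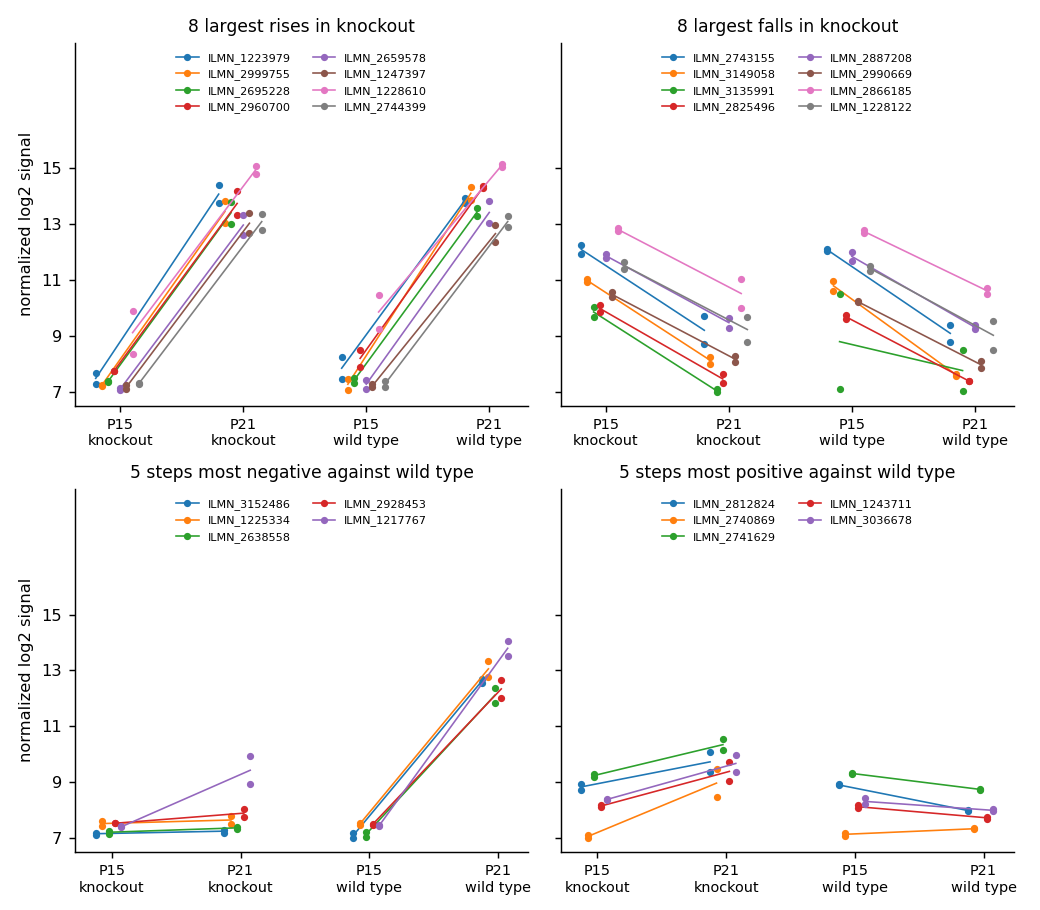
Normalized log2 signal on each array (points) and group means (joined by lines within a genotype) for the probes with the largest rises and falls in knockout and with the largest step differences between genotypes. The 8 largest rises and 8 largest falls have mean changes of the same sign in both genotypes between P15 and P21, with wild-type replicates far apart for ILMN_3135991, while the 5 probes with the most negative step differences stay under 10 on every knockout array and reach 11.83 or more on both wild-type P21 arrays.

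The largest falls were smaller and mostly ended above background. ILMN_2743155 read 12.24 and 11.94 on the P15 knockout arrays and 8.69 and 9.70 on the P21 arrays, a change of -2.89 ± 0.29 (SE; limma adjusted p = 3e-05). The ages did not overlap, but the P21 arrays were a full log2 unit apart. ILMN_3149058 was tighter, with 10.93 and 11.02 at P15 and 7.99 and 8.23 at P21 (change -2.86 ± 0.13, SE; limma adjusted p = 1.45e-07). It went on to 7.51 and 7.30 at P30 and 7.35 and 7.23 at P60 in knockout.

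ILMN_2887208 went from 11.80 and 11.93 to 9.29 and 9.65, and ILMN_2990669 from 10.57 and 10.39 to 8.04 and 8.29. ILMN_2825496 went from 10.12 and 9.84 to 7.29 and 7.61, where 1 of the 2 arrays still detected it. ILMN_2866185 (12.85 and 12.75, then 9.998 and 11.03) and ILMN_1228122 (11.64 and 11.38, then 8.76 and 9.68) had P21 arrays about a log2 unit apart, with replicate 1 the lower. In wild type these 7 probes fell as well, by 2.12 to 3.20 on the log2 scale. ILMN_3135991 stands apart: it read 9.66 and 10.05 at P15 and 7.08 and 6.98 at P21, undetected and at least 5.75-fold lower (limma adjusted p = 0.0161). In wild type, however, its replicates did not go together, at 10.50 and 7.08 at P15 and 8.48 and 7.03 at P21. Its adjusted p rose to 0.0852 without P15 knockout replicate 2, 0.0717 without P21 knockout replicate 1 and 0.0553 without P15 knockout replicate 1.

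Most called changes were far smaller than these. Nearest to the median rise were ILMN_1220589 (8.02 and 7.95, then 9.13 and 8.69), ILMN_2595266 (8.75 and 8.74, then 9.78 and 9.55) and ILMN_2946345 (8.36 and 8.37, then 8.96 and 9.61). These are 1.89-fold changes. The first and second stayed up, whereas ILMN_2946345 read 8.66 and 8.43 at P30 and 7.70 and 7.58 at P60 in knockout, below its P15 level. Nearest to the median fall were ILMN_2602761 (8.61 and 8.45, then 7.73 and 7.92), ILMN_3162658 (8.93 and 8.39, then 7.82 and 8.08) and ILMN_2604922 (9.75 and 9.95, then 9.14 and 9.14), each 1.63-fold lower. ILMN_2602761 and ILMN_3162658 lost the call without P21 knockout replicate 1 (limma adjusted p = 0.068 and 0.0876) and without P15 knockout replicate 1 (0.0583 and 0.0969). With only the 4 knockout arrays in the fit, ILMN_3162658 and ILMN_2946345 lost it too (0.0839 and 0.0534).

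Some of the brightest probes stayed level. ILMN_2523169 read 15.28 and 15.33 on the P15 knockout arrays and 15.31 and 15.33 on the P21 arrays, with a 95% interval for the change of -0.28 to 0.30. ILMN_2847248 (15.19 and 15.28, then 15.39 and 15.31), ILMN_1254421 (15.23 and 15.24, then 15.33 and 15.24), ILMN_2761152 (15.33 and 15.16, then 15.24 and 15.28), ILMN_3000325 (15.24 and 15.07, then 15.23 and 15.19) and ILMN_3066821 (15.31 and 15.39, then 15.16 and 15.23) were as steady. The last had the widest departure, with an interval of -0.34 to 0.04. All 6 sit at the top of the scale, with raw signals between 38343 and 49692, where quantile normalization leaves little room for a change to show.

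Detection gave a view that no normalization touches. Of 25689 regular probes, 12147 (47.3%) were detected on all 4 knockout arrays and 9036 (35.2%) on none. A further 567 (2.21%) were detected on neither P15 array and on both P21 arrays, and 378 (1.47%) the other way round. Of the 567 that came up, 284 also rose in the limma test (50.1%, against 13.4% of all tested probes), and the brightest reached 13.84. Of the 378 that went out, 83 fell (22.0%, against 19.3% of all tested), with a median change of -0.22. Both classes were chosen on the arrays that the test uses.

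The probes that came up mostly stayed detected in knockout: 427 of the 567 were detected on both P30 arrays and 411 on both P60 arrays. Of all 25689 regular probes these numbers were 12780 and 12603. In wild type 912 probes came up, and 293 came up in both genotypes. Of the 567, 406 were detected on both P21 wild-type arrays, against 13484 of all 25689 regular probes. Detected on neither P15 wild-type array were 407 of the 567, and on both 24, against 10654 and 13019 of all regular probes. After ILMN_3135991, the probes with the highest P15 level among those that went out were ILMN_1253604 (8.94 and 8.63, then 7.29 and 7.28, at least 2.74-fold lower, limma adjusted p = 0.0098) and ILMN_2720058 (8.85 and 8.15, then 7.04 and 7.14, limma adjusted p = 0.168). ILMN_1253604 had an adjusted p of 0.0709 without P15 knockout replicate 1 and 0.0523 without P21 knockout replicate 1. Both had 1 high and 1 low array in P15 wild type, at 9.04 and 7.31 for the former and 9.01 and 7.15 for the latter. With a detection p under 0.01 asked for on the detected side, 348 probes came up and 122 went out.

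Which probes fell and which rose differed by how bright they were at P15, as read on the P15 wild-type arrays, which the knockout step does not use. The tested probes were divided by that level into 4 classes of equal size. In the dimmest class 388 of 4339 rose (8.94%) and 16 fell (0.369%). In the second class 494 rose (11.4%) and 441 fell (10.2%). In the third class 756 rose (17.4%) and 1220 fell (28.1%), and in the brightest 696 rose (16.04%) and 1676 fell (38.6%). Rises of at least 2 on the log2 scale numbered 97, 116, 116 and 56 from the dimmest class to the brightest. A probe near background cannot be seen to fall far, and 18 of the 19 falls of at least 2 were in the brightest class. A probe undetected on all P15 arrays passed the filter only through arrays of other ages, P21 among them. This favours rises over falls in the dimmest class, so that balance is partly set by the filter.

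The P21 knockout arrays were not equally far from P15. Replicate 1 was higher by at least 1 log2 unit for 1472 probes and lower for 1464 than P15 replicate 1, and for 1365 and 1287 than P15 replicate 2. Replicate 2 was higher for 862 and lower for 459 than P15 replicate 1, and for 834 and 372 than P15 replicate 2. The root-mean-square (RMS) log2 difference between the P21 knockout replicates was 0.357 over the tested probes, against 0.224 between the P15 knockout replicates, and 246 probes against 50 differed by at least 1. By RMS it was the widest of the 8 replicate pairs of the series, which began at 0.191, whereas by probes differing by at least 1 the P30 wild-type pair was wider, with 335. Without P21 replicate 1, 1368 probes rose and 1615 fell. Without P21 replicate 2, 2587 rose and 3480 fell. Without P15 replicate 1, 2124 fell, and with only the 4 knockout arrays in the fit 1540 rose and 1886 fell. With 2 arrays against 2 an exact two-sided permutation test cannot go below 0.333, so no per-array summary is tested.

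How far each array had moved along the wild-type course from P15 to P30 was put on a scale set by wild-type arrays of other ages: 0 is the mean P15 and 1 the mean P30 wild-type profile, over all tested probes, and no P21 or knockout array defines it. Changes off that course do not count toward the place on it. The P15 knockout arrays lay at -0.0151 and 0.00209, and their RMS log2 difference from single P15 wild-type arrays, 0.175 to 0.220, was no wider than that between the P15 knockout replicates. The P21 knockout arrays lay at 0.481 and 0.327, and the P21 wild-type arrays at 0.682 and 0.555. Knockout was below wild type on all arrays at P21. Knockout arrays lay at 0.565 and 0.519 at P30 and at 0.518 and 0.532 at P60. On this scale, then, P21 replicate 1 was close to these later arrays and replicate 2 was not. The RMS log2 difference left off the scale was 0.585 and 0.456 for the P21 knockout arrays. It was 0.429 and 0.396 for P21 wild type and 0.584 to 0.627 for the later knockout arrays. The difference between the P21 knockout replicates had a correlation across probes of 0.53 with this wild-type scale (17355 probes, which share arrays and are not independent). At P21 the difference between replicates 1 and 2 in knockout also had a correlation of 0.608 with that in wild type.

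**Figure D3:**
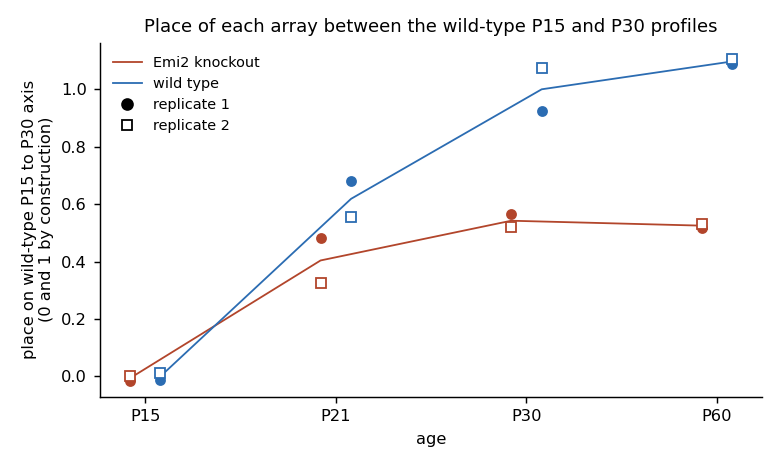
Place of each of the 16 arrays on the scale from the mean wild-type P15 profile (0) to the mean wild-type P30 profile (1) by age, with lines through the group means, filled circles for replicate 1 and open squares for replicate 2. Knockout arrays go from about 0 at P15 to 0.481 and 0.327 at P21 and lie between 0.518 and 0.565 later, while wild type goes on to 1.11.

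The step in knockout was set beside the same step in wild type, in arrays of which none are shared. In wild type 2678 probes rose (15.4% of those tested) and 4478 fell (25.8%), 41.2% together. Of the 2334 knockout rises, 1697 (72.7%) also rose in wild type, which is 63.4% of the wild-type rises, and 7 fell. Of the 3353 knockout falls, 2884 (86.0%) also fell in wild type, which is 64.4% of the wild-type falls, and 20 rose. Both tests of a probe use the same estimate of spread. Among all tested probes the changes had a correlation of 0.856 across probes.

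Most knockout calls had the same sign in wild type even where the wild-type test did not pass. Of the 630 knockout rises with no wild-type call 522 had a positive wild-type change, and of the 449 such knockout falls 37 did. Among all 17355 tested probes 6964 had a positive wild-type change. The 166 knockout rises of at least 3 all rose in wild type, with a median of 4.17 there against 3.76 in knockout, and for 0 of them did the step difference pass (limma, 333 negative and 38 positive of all 17355 tested). They were chosen for a large knockout change, so probes that knockout did not follow could not be among them. Chosen from the wild-type side, 80 of the 280 rises of at least 3 (28.6%) had a more negative step in knockout by the test. The 19 knockout falls of at least 2 had a median of -2.21 in knockout and -2.16 in wild type, and 18 of them fell there. Calls made in knockout alone were mostly small: the 630 probes that rose only there had a median change of 0.58 against 0.20 in wild type, and for 16 of them the steps differed by the test. The 449 that fell only there had medians of -0.52 and -0.26, and for 10 the steps differed.

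**Figure D4:**
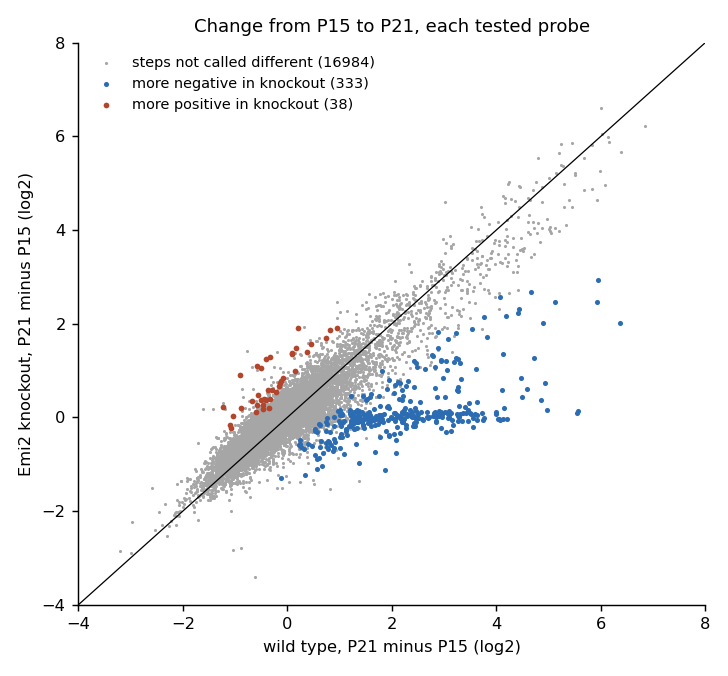
Change from P15 to P21 in Emi2 knockout against that in wild type (both log2) for each of 17355 tested probes, with a line of equality, and in colour the 333 probes whose step was more negative and the 38 whose step was more positive in knockout by the test of the difference. Most probes lie along the line, the falls that passed reach -2.89 in knockout and -3.20 in wild type, and a band of probes with wild-type rises up to 5.57 lies near 0 in knockout.

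Read from the wild-type side, large rises divided into probes that knockout followed and probes that it did not. Of the 606 wild-type rises of at least 2, 478 also rose in knockout, whereas 119 (19.6%) had a knockout change under 0.5, the measure by which they were set apart. Those 119 had a median change of 2.84 in wild type and 0.04 in knockout, and 65 of them were detected on neither P21 knockout array (10210 of all 25689 regular probes, including those not tested). Between them, with a knockout change of at least 0.5 but under 50% of the wild-type change, lay 57 probes (9.41%). In the remaining 430 the median change was 2.96 in wild type and 2.65 in knockout.

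By the fixed cut of 0.5, the share that knockout did not follow was lower among the very largest rises. A knockout change under 0.5 was seen for 220 of 813 wild-type rises between 1 and 2 (27.1%), 71 of 326 between 2 and 3 (21.8%), 37 of 156 between 3 and 4 (23.7%) and 11 of 124 at 4 or more (8.87%). The last of these 4 shares was not tested against the others. At P30 the 119 probes had a median level of 7.52 in knockout and 12.38 in wild type, and at P60 7.44 and 12.83. For the 430 followed probes these medians were 11.52 and 11.72 at P30 and 11.47 and 11.82 at P60.

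The test of the difference between the steps passed for 333 probes with a more negative step in knockout (1.92% of those tested) and 38 with a more positive one (0.219%), 2.14% together. The negative differences were larger, with a median of -1.77 and 53 of at least 3 in size. The positive ones had a median of 0.95 and a highest value of 1.81. With background correction 213 negative and 3 positive differences had a size of at least 3. Of the 333, 323 rose in wild type (2678 of all 17355 tested), and all were detected on both P21 wild-type arrays (13484 of all 25689 regular probes). In knockout 245 of the 333 changed by less than 0.5. The test that chose the 333 uses the same arrays, so these counts largely follow from the choice and are no separate evidence. The count of 333 was 208 without P15 wild-type replicate 2, 213 without P15 wild-type replicate 1 and 220 without P15 knockout replicate 2. The count of 38 was less firm: it was 105 without P21 knockout replicate 2, 21 or fewer without either P15 array of either genotype, 12 without P21 wild-type replicate 1 and 17 with only the 8 arrays compared.

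ILMN_3152486 had the most negative difference. It read 7.18 and 7.11 in knockout at P15 and 7.18 and 7.29 at P21, detected on none of these arrays, while wild type went from 7.18 and 6.99 to 12.69 and 12.55, at least 38.8-fold higher (limma adjusted p = 5.53e-07 for the difference). Its difference was -5.45, or -7.85 with background correction. ILMN_1225334 was detected on all 4 knockout arrays and read 7.61 and 7.41 at P15 and 7.78 and 7.50 at P21, against 13.35 and 12.76 in wild type at P21. ILMN_2638558 read 7.40 and 7.31 in knockout at P21, where 1 array detected it, and 12.38 and 11.83 in wild type. For none of these 3 did the knockout change pass (limma adjusted p from 0.518 to 0.734), and the knockout and wild-type P21 arrays lay over 4 log2 units apart. Later in knockout, ILMN_3152486 read 8.13 and 8.50 at P30 and 8.93 and 8.60 at P60. ILMN_2638558 read 7.99 and 8.30, then 8.11 and 8.03, and ILMN_1225334 7.52 and 7.64, then 7.41 and 7.52.

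ILMN_2928453 read 7.51 and 7.53 in knockout at P15 and 8.02 and 7.75 at P21, where its change of 0.36 ± 0.20 (SE) did not pass (limma adjusted p = 0.201). In wild type at P21 it read 12.64 and 12.02. ILMN_1217767 rose in both: in knockout from 7.42 and 7.38 to 9.92 and 8.92, a change of 2.02 ± 0.33 (SE; limma adjusted p = 0.000773), and in wild type from 7.41 and 7.44 to 14.06 and 13.53. In knockout it read 9.97 and 9.87 at P30 and 8.93 and 9.97 at P60.

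A small number of probes went opposite ways. ILMN_2839142 fell in knockout from 9.25 and 9.40 to 8.01 and 8.41 (change -1.12 ± 0.17, SE; limma adjusted p = 0.000536) and rose in wild type from 9.30 and 9.41 to 11.31 and 11.14. Its knockout levels at P30, 9.08 and 9.32, were again near those at P15. ILMN_2715466 (8.89 and 9.09, then 8.15 and 8.33 in knockout, and 8.73 and 8.87, then 11.21 and 10.57 in wild type) and ILMN_2711788 (9.42 and 9.24, then 8.49 and 8.70, and 9.60 and 9.40, then 11.55 and 10.80) also fell in knockout and rose in wild type. At P30 in knockout they were still below P15, at 8.51 and 8.19 for the former and 8.17 and 8.23 for the latter. At P60 in knockout ILMN_2715466 read 9.05 and 8.78, and ILMN_2711788 8.23 and 8.11. ILMN_3131063 also went opposite ways, with a smaller step difference, from 10.14 and 10.20 to 9.49 and 9.28 in knockout and from 10.27 and 10.53 to 11.62 and 11.35 in wild type. The knockout falls of ILMN_2715466, ILMN_2711788 and ILMN_3131063 lost their call without P21 knockout replicate 1 (limma adjusted p = 0.0977, 0.0986 and 0.0545). The fall of ILMN_3131063 lost it without each of the other knockout arrays too (0.0752 to 0.0909), that of ILMN_2715466 without P15 replicate 2 (0.0908) and that of ILMN_2711788 without P15 replicate 1 (0.0843). The step difference of ILMN_3131063 had an adjusted p of 0.0576 without P15 wild-type replicate 1 (limma).

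Among the probes with a more positive step in knockout, ILMN_2812824 read 8.93 and 8.72 at P15 and 10.08 and 9.36 at P21 in knockout, and 8.87 and 8.91, then 7.98 and 7.97 in wild type (difference 1.81 ± 0.27, SE; limma adjusted p = 0.00282). Its knockout change of 0.90 had an adjusted p of 0.00368, or 0.0735 with only the 4 knockout arrays (limma). ILMN_2741629 went from 9.20 and 9.27 to 10.54 and 10.13 in knockout and from 9.30 and 9.31 to 8.75 and 8.72 in wild type. These 2 probes rose in knockout and fell in wild type.

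ILMN_1243711 (8.18 and 8.09, then 9.72 and 9.04 in knockout) and ILMN_3036678 (8.38 and 8.37, then 9.96 and 9.37) rose in knockout, with wild-type changes of -0.40 and -0.32 that did not pass. ILMN_2740869 was detected on neither P15 array in knockout and read 9.45 and 8.47 at P21, at least 3.09-fold higher, against 7.30 and 7.35 in wild type. Its step difference of 1.71 (limma adjusted p = 0.038) lost the call when 6 of the 8 arrays were left out in turn (0.0738 to 0.155), with only the 8 arrays (0.112) and with no filter on dim probes (0.0649). In all 5 probes P21 replicate 1 was the higher of the knockout arrays, and all 5 read higher in knockout than in wild type on every P30 and P60 array.

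The levels of these lists at the later ages are given as medians per array, and the lists that use knockout calls were chosen on the P15 and P21 arrays shown. The 2334 probes that rose in knockout had medians of 8.48 and 8.57 at P15, 10.27 and 9.75 at P21, 10.39 and 10.23 at P30 and 10.21 and 10.23 at P60. The P21 replicate 1 median was at the later level and that of replicate 2 was lower. The 3353 that fell had 9.63 and 9.61, 8.64 and 8.90, 8.54 and 8.63, and 8.67 and 8.65. In wild type the falling list went lower with age, to 8.29 and 8.25 at P60.

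The 333 probes with a more negative step had medians of 7.30 and 7.31 in knockout at P15 and 7.43 and 7.41 at P21. At P30 they were 7.64 and 7.73 in knockout and 11.31 and 11.65 in wild type. The 38 with a more positive step had 9.84 and 9.37 in knockout at P21 and 10.04 and 9.91 at P30, where wild type had 8.35 and 8.27. At the later ages the knockout and wild-type arrays did not overlap in either of these 2 lists.

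**Figure D5:**
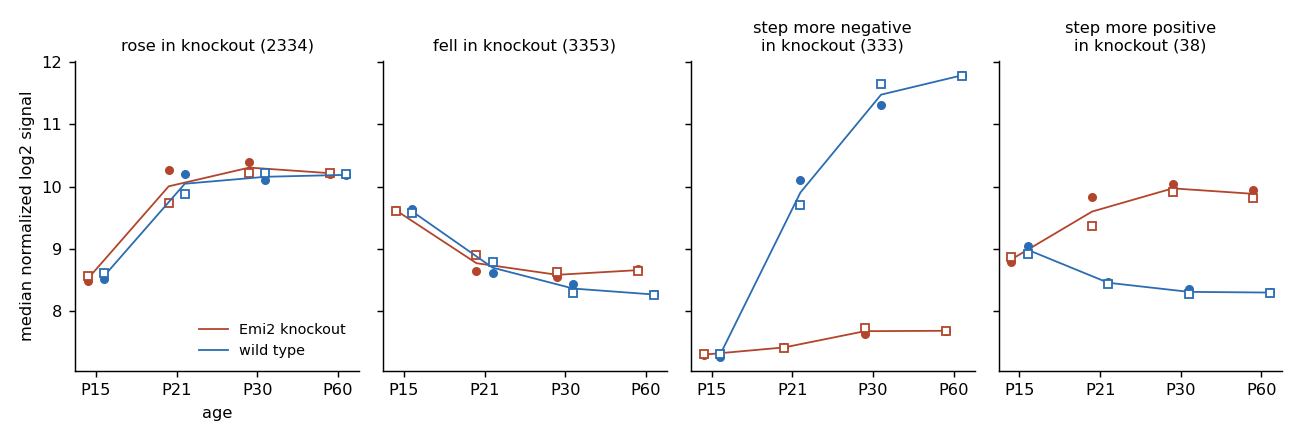
Median normalized log2 signal of 4 lists of probes on each array by age, with lines through the group means, filled circles for replicate 1 and open squares for replicate 2. Knockout and wild type run together for the 2334 rises (10.21 and 10.23 in knockout and 10.18 and 10.20 in wild type at P60) and lie apart for the 333 probes with a more negative step, at 7.69 on both knockout arrays and near 11.8 in wild type at P60.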

How the data were processed

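Whole-testis RNA was measured in 16 arrays, 8 groups of 2, and grouped by title. The deposited signal intensity of each probe had no background correction or normalization, per the file headers. The deposited detection p-value column rose with the signal in regular probes and was read as 1 minus p, and a p under 0.05 counted as detected. The deposited log2 values, the main measure, were recomputed to within 0.00276 by quantile normalization of the intensities over all 26511 rows. Their scale is therefore known, with no centring, and column medians were 7.39. The submitters' processing notes name limma, and other steps are not given in the sources used here. Median signals of the 16 arrays were 132.5 to 213.7 and detected regular probes 13167 to 14630, and the number of arrays limits the precision.

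The 822 rows in the control range of identifiers were left out. In 7 of them the detection value ran as in regular probes. Probes detected on at least 2 arrays (17355 of 25689) were fitted with limma 3.58.1 in R 4.3.3 over 8 group means (8 residual and 3.55 prior degrees of freedom), each probe as its own row, with Benjamini-Hochberg adjustment over all tested probes. Every adjusted p is from limma, and the fit was tested on simulated data. The platform table gave 1 symbol for 24272 regular probes, several for 0 and none for 1417, and 22981 symbols were found through gene numbers (RefSeq, GRCm38.p6). A lower bound of a fold compares the brighter group's mean with, per array, the higher of the dim probe's value and the lowest detected value.

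Probes named are the 8 largest rises and falls past the threshold, without overlap and detected at the brighter age. Others are the 3 nearest to the median of each direction, the 6 brightest with an interval within 0.6 of 0, and the 3 brightest per direction that came up or went out of detection. The last are up to 4 that went opposite ways in the genotypes, the 5 largest step differences in each direction and the probe named Fbxo43. The comparisons, lists and rules were chosen with earlier results of these data known. Alternatives were background correction with an offset of 16, scaling, filters, the arrays and block in the fit, the variance trend and leaving out arrays.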

Additional observations from a re-analysis of the deposited data

Results flagged for a closer look

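The change from P15 to P21 differed between knockout and wild type by the limma test of the difference itself, with 333 probes more negative in knockout and 38 more positive. In the deposited values the probes with the most negative differences in log2 change were ILMN_3152486 (-5.45), ILMN_1225334 (-5.44), ILMN_2638558 (-4.82), ILMN_2928453 (-4.50) and ILMN_1217767 (-4.34). Those with the most positive were ILMN_2812824 (1.81), ILMN_2740869 (1.71), ILMN_2741629 (1.68), ILMN_1243711 (1.64) and ILMN_3036678 (1.61). Several of these start at or near background, so their sizes and order depend on its treatment: with background correction ILMN_3152486 had -7.85, ILMN_1225334 -6.96, ILMN_2638558 -6.98 and ILMN_2740869 3.51. Changes that passed in opposite directions also differed for ILMN_2839142 (-2.98), ILMN_2715466 (-2.84), ILMN_2711788 (-2.41) and ILMN_3131063 (-1.87). Groups of 2 arrays are too small to test single arrays as outliers.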

How the results depend on the processing

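With only the arrays compared, 1540 probes rose and 1886 fell in knockout, and 17 steps were more positive in knockout. Fewer arrays then estimate the spread. Leaving out each array in turn gave 1368 to 2587 rises and 1615 to 3480 falls in knockout and 1851 to 2688 rises and 2697 to 4057 falls in wild type. Step differences then numbered 208 to 447 more negative and 10 to 105 more positive. With detection p under 0.01 on the detected side, 348 probes came up and 122 went out, and without single arrays, an alternative chosen after seeing the data, 765 to 1058 and 535 to 1020, as fewer arrays must meet the condition. Numbers of calls of any size stayed within 1.5 times under both background corrections, 75th percentile scaling, both filters, 1 probe per symbol and the variance trend. Numbers past a given size did not: with background correction falls of at least 1 went from 731 to 1838, rises of at least 3 from 166 to 383 and negative step differences of at least 3 from 53 to 213 (215 with control rows). Background correction moved the median wild-type change over all tested probes from -0.08 to -0.20. Background parameters from the control rows were estimated robustly, since some of these rows are bright.

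Replicate numbers were not taken to pair the arrays, since no label says what they share and correlations of replicate differences between groups ran from -0.253 to 0.608. They went together at P21, where knockout and wild type gave 0.608, and not between P15 and P21. The replicate block gave 2326 rises and 3311 falls in knockout and 30 and 315 step differences, and changed no call of a named probe. The correlation of -0.253 was between the knockout ages, and with P15 numbers crossed, chosen after seeing the data, 2370 rose and 3380 fell. Of the alternative values of named probes that passed, 0 changed sign. Changes of sign were seen in 9 values that passed neither as reported nor in the alternative, all of them at most 0.07 in log2 size after it. In the knockout step 599 kept their side of the threshold, 20 lost it and 1, ILMN_2720058 with only the 4 arrays (adjusted p = 0.0264), passed. In the step difference 228 kept it and 9 lost it. The cause was not tested.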
